A study of Mus musculus with 9 samples.

Results

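The genes described here are 10 transcription regulators that brown fat and other tissues switch on rapidly after a stimulus: the nuclear receptors Nr4a1, Nr4a2 and Nr4a3, the AP-1 subunits Fos, Fosb, Fosl2, Jun and Junb, and the regulators Egr1 and Ier2. They were chosen by gene name, and all 10 were found among the 16937 genes listed in the 3 deposited comparison tables. Brown adipose tissue, the heat-producing fat of mammals, came from adult mice in 3 groups of 3 libraries. WT RT mice were wild type and stayed at 23 °C, and WT Cold mice were wild type and spent 8 h at 4 °C. GCN2 KO Cold mice carried a whole-body Gcn2-/- deletion and also spent 8 h at 4 °C. Per the paper, wild-type and knockout mice were all of the C57Bl/6J strain. All mice were housed alone, had 5 days of acclimation at room temperature and were killed at the same time of day, and mice of both sexes were used, although the labels give no sex for any library. GCN2 KO mice at room temperature were not analysed here, so a genotype effect in cold could not be set against one at room temperature.

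Immediate early genes are transcribed within minutes of a signal from transcription regulators that are already in the cell, and their mRNAs are mostly short-lived. In brown fat, cold makes sympathetic nerves release noradrenaline, which raises cAMP in the adipocyte and activates protein kinase A, and the kinase phosphorylates CREB on cAMP response elements. A second route runs from MAP kinases to serum response factor and its partners. Fos and Jun proteins pair to form AP-1, Nr4a receptors bind DNA without a known endogenous ligand, and Egr1 is a zinc finger regulator, so these early genes in turn set later transcription.

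The promoters of the Nr4a genes and of Fos and Fosb are shown because the cAMP response element is a well-known element of such genes and because these genes gave unlike values in cold. RefSeq promoter windows of 300 bases (250 before and 50 after the start site, GRCm38.p6) were matched for 8 of the 10 genes by symbol, and Egr1 and Ier2 had no entry. Only the stretch before the start site that no annotated exon covers is printed, 5′ to 3′ along the gene, and for Nr4a3 that stretch ends well before the start site used by RefSeq. Capitals mark TGACG, the core of the cAMP response element, on either strand (CGTCA on the other).
Nr4a1, chr15:101266596-101266845, plus strand: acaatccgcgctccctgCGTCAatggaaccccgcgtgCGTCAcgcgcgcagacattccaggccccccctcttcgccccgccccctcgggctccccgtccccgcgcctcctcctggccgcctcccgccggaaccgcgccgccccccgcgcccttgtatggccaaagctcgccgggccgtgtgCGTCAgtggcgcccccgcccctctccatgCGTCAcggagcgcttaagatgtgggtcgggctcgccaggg
Nr4a2, chr2:57124004-57124253, minus strand: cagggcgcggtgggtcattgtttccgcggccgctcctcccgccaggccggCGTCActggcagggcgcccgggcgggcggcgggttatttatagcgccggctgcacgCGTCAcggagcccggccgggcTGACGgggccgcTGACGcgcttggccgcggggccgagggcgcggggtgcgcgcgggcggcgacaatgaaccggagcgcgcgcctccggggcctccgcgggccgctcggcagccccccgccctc
Nr4a3, chr4:48045055-48045152, plus strand: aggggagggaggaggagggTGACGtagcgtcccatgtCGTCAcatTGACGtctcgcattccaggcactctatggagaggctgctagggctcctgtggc
Fos, chr12:85473640-85473889, plus strand: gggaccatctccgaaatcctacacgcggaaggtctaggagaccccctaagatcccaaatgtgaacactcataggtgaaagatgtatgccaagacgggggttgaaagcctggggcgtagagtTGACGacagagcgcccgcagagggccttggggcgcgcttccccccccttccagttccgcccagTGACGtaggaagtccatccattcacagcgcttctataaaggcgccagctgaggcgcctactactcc
Fosb, chr7:19310052-19310295, minus strand: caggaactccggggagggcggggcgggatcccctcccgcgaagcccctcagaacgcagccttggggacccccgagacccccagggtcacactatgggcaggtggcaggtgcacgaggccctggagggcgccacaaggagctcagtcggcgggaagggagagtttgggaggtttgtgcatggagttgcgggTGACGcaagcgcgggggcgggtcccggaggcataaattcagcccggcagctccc

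Within the full windows, Nr4a1, Nr4a2 and Nr4a3 each held 4 copies of TGACG, counted on both strands. Of 32851 promoter windows of this length, 0.231% held 4 or more copies and 20.8% held at least 1. Those windows were not matched for base composition, while the Nr4a1, Nr4a2 and Nr4a3 windows held 72.3%, 81.7% and 64.7% G and C. Fos held 2 copies, Fosb and Junb held 1 each, and the windows of Fosl2 and Jun held 0. The full palindrome TGACGTCA, which contains TGACG, was in none of the 8 windows and in 1.79% of all windows. Neither the AP-1 motif TGANTCA (7.81% of all windows), the Nr4a motif AAAGGTCA (1.51%) nor the CArG box of serum response factor (1.63%) was matched in the 8 windows, which says only that these letters are not there. The 3 Nr4a windows were alike in this count, while Nr4a3 alone of the 3 was called in cold, and a difference between their responses was not tested.

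The libraries held 27058799 to 30768064 reads on listed genes, with the highest totals in WT RT. Ucp1 and Cidea, which mark brown adipocytes, and the general adipocyte genes Adipoq and Fabp4 were abundant in all 9 libraries. Eif2ak4, which encodes GCN2, was at 6.46 to 8.34 CPM (reads scaled to a common library total) in WT Cold, 11.1 to 13.0 in WT RT and 11.8 to 12.7 in all 3 libraries that carry the GCN2 KO Cold label, so its mRNA level did not mark the knockout and the genotype rests on the labels. The title of 1 of the 3 GCN2 KO Cold samples names both genotypes, and its genotype field (GCN2 KO) was followed. Counts over the whole gene cannot show which exons were deleted. The WT RT library codes start with other letters than the codes of the cold libraries, so a difference in code series and the cold cannot be told apart. One library of each cold group, its library C, stood apart with 7.02 CPM (WT Cold) and 10.5 CPM (GCN2 KO Cold) of the Y-linked Ddx3y, against at least 84.8 CPM in the other 7. Xist, which is transcribed from the inactive X chromosome, was at 131 and 128 CPM in these libraries and at most 43.5 CPM in the other 7, so each cold group held 1 such library and WT RT held 0. Letters A, B and C only name the libraries of a group in code order, and the columns name no mouse, so p-values measure only the spread between these samples. In whole tissue, fewer cells of a type and less RNA per cell cannot be told apart.

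Lists of marker genes for other cell types in the tissue also moved. The 5 red cell markers summed to 260 to 345 CPM in WT RT, 572 to 2279 for WT Cold and 1084 to 2081 for GCN2 KO Cold, and all 5 rose in each cold group against WT RT, where 2.99% (WT Cold) and 3.01% (GCN2 KO Cold) of all genes rose. The 9 macrophage markers summed to 411 to 663 CPM, 211 to 314 CPM and 157 to 233 CPM in the same order, and 3 of 9 fell in WT Cold and 7 of 9 in GCN2 KO Cold against WT RT, where 8.14% and 10.6% of all genes were called in either direction. The 12 skeletal muscle markers summed to 2601 to 3134 CPM, 2465 to 4101 CPM and 341 to 1408 CPM, and 9 of 12 fell in GCN2 KO Cold against WT RT by limma (5 by DESeq2 and 5 by edgeR). No marker of these lists was at 0 in any library. Macrophages and muscle fibres can express immediate early genes too, and the part of these shifts in the values below was not tested.

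Several of the 10 genes were higher in wild-type mice after cold, with Nr4a3 giving the largest fold change of the 10. Against WT RT, 3 of 10 genes rose in WT Cold and none fell: Nr4a3, Fosb and Fosl2. A gene was called where its adjusted p was under 0.05 and its log2 fold change was beyond 1 in either direction. Of all 16679 genes tested, 8.14% were called, and those called as higher were 2.99% of all. DESeq2 on the recovered reads called the same 3 genes, with 8.53% of all genes called. Jun and Ier2 were also higher with adjusted p under 0.05 but below the fold threshold, which makes 5 of 10, against 27.7% of all genes. For Ier2 this rested on single libraries, with an adjusted p of 0.0573 without library A of WT RT and 0.0598 without library B of WT Cold. The libraries of WT Cold and WT RT did not overlap for these 5 genes, all higher in cold, and did not overlap for 45.5% of all genes. The median log2 fold change of the 10 genes was 0.54, and that of all genes was 0.00. Cold was sampled only at 8 h, so a change that came and went earlier could not be seen for any of these genes.

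**Figure D1:**
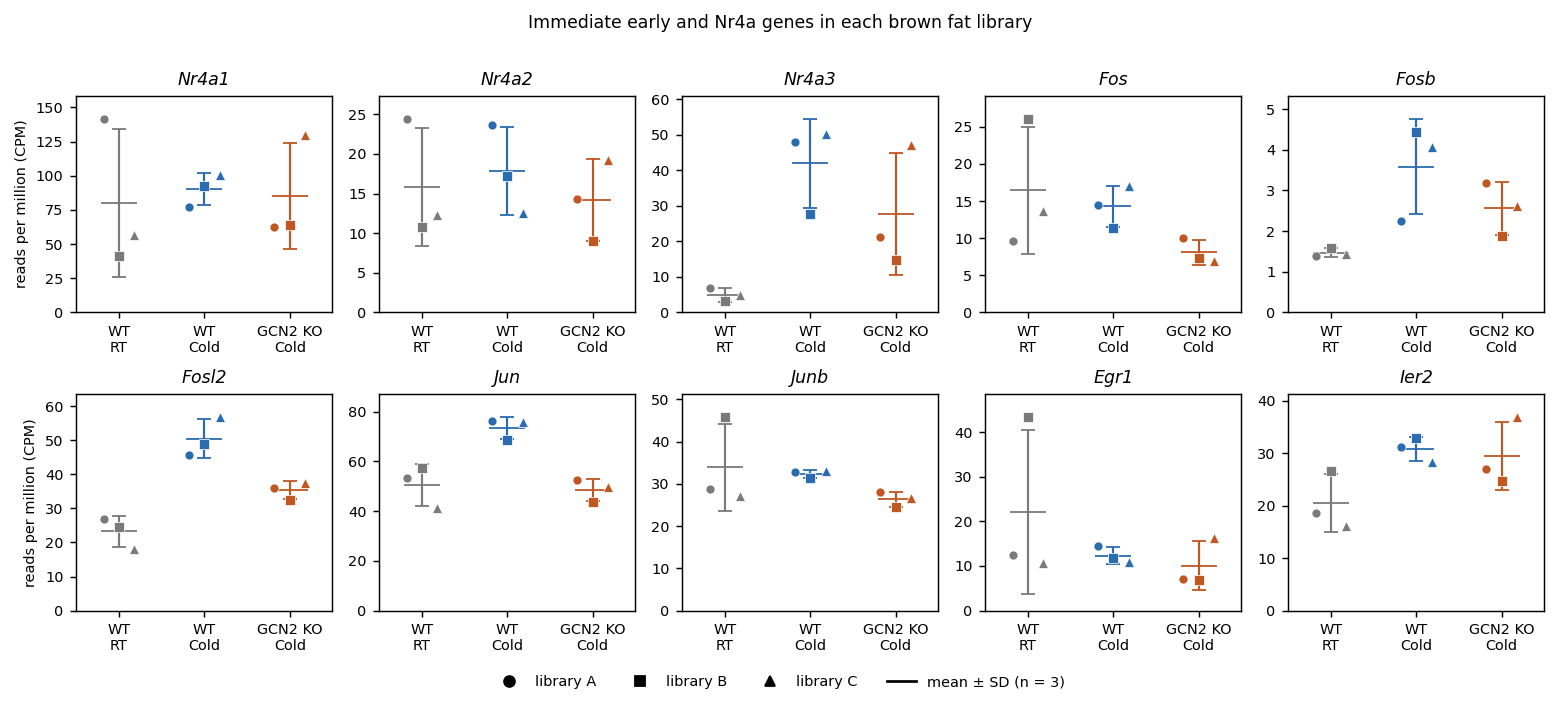
CPM (y axis, linear from 0, own scale per gene) of each gene in the 3 libraries of WT RT, WT Cold and GCN2 KO Cold (x axis). Symbols are libraries A, B and C, and bars are the mean ± SD (n = 3). Nr4a3 lay at 3.09 to 6.93 CPM in WT RT and at 14.6 CPM or above in all 6 cold libraries, while Nr4a1, Nr4a2 and Egr1 spread as widely within a group as between groups.

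Among the Nr4a receptors, orphan nuclear receptors named NUR77, NURR1 and NOR1 as proteins, 1 of 3 rose. Nr4a3 (chr4:48045153-48086447, plus strand, GRCm38) had 196, 86.1 and 145 normalized counts in the WT RT libraries (A, B and C, the order kept below) and 1429, 837 and 1571 in WT Cold. Each WT Cold library exceeded each WT RT library several-fold. The means were 142 ± 54.7 and 1279 ± 389 (SD, n = 3), a log2 fold change of 3.19 with a standard error of 0.33 (9.11-fold, adjusted p = 0.00075). The log2 fold change lay between 2.87 and 3.47 when any 1 library was left out.

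Nr4a1 (chr15:101254269-101274795, plus strand) had normalized counts of 3996, 1160 and 1701 in WT RT and 2302, 2799 and 3129 in WT Cold, so the room temperature libraries spanned a wider range than the cold ones and the groups overlapped. Its log2 fold change was 0.45 with a 95% interval from -0.46 to 1.36 (adjusted p = 0.43). This value depended on single libraries of WT RT: without library A the log2 fold change was 0.95 (adjusted p = 0.0213), still under the fold threshold, and without library B it was 0.06 (adjusted p = 0.91). Nr4a2 (chr2:57106830-57124003, minus strand) had 689, 302 and 370 normalized counts in WT RT and 705, 524 and 392 in WT Cold. The groups overlapped, and the log2 fold change was 0.30 with a 95% interval from -0.44 to 1.05 (adjusted p = 0.52). It was 0.65 without library A of WT RT and 0.06 without library B.

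Among the Fos family, the DNA-binding partners of Jun proteins, Fosl2 and Fosb rose and Fos gave no difference that the test could show. Fosl2 (chr5:32135801-32157842, plus strand), which encodes FRA2, had 762, 688 and 543 normalized counts in WT RT and 1359, 1478 and 1772 in WT Cold. The groups were well apart, with means of 664 ± 111 and 1536 ± 213 (SD, n = 3), and the log2 fold change was 1.21 with a standard error of 0.15 (2.32-fold, adjusted p = 0.00143). Fosb (chr7:19302696-19310051, minus strand), which encodes FosB and its shorter splice form, had 38.9, 44.4 and 43.3 normalized counts in WT RT. In WT Cold it had 66.8, 135 and 127, with library A nearest to room temperature. Its log2 fold change was 1.29 with a standard error of 0.30 (2.45-fold, adjusted p = 0.016), at 42 to 128 reads per library. The Fosb call was lost without library A of WT RT (adjusted p = 0.0536) or library B of WT Cold (adjusted p = 0.0638), and on CPM its log2 fold change was 0.86.

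Fos (chr12:85473890-85477273, plus strand) had 271, 727 and 411 normalized counts in WT RT and 428, 346 and 530 in WT Cold. The 3 cold libraries lay inside the range set by libraries A and B of WT RT. The log2 fold change was -0.02 with a 95% interval from -0.79 to 0.76 (adjusted p = 0.98), and it was 0.36 without library B of WT RT.

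In the Jun family, Jun (chr4:95049034-95052222, minus strand) had 1503, 1597 and 1233 normalized counts in WT RT and 2265, 2077 and 2365 in WT Cold. All cold libraries were above all room temperature libraries, and the log2 fold change was 0.64 with a standard error of 0.11 (1.56-fold, adjusted p = 0.00546), below the fold threshold. Junb (chr8:84974484-84978718, minus strand), a Jun protein that can restrain c-Jun, had 811, 1277 and 813 normalized counts in WT RT and 974, 949 and 1030 in WT Cold. Library B of WT RT was above all cold libraries and libraries A and C were below them, and the log2 fold change was 0.06 with a 95% interval from -0.34 to 0.46 (adjusted p = 0.82).

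Egr1, a zinc finger regulator on chromosome 18, had 349, 1209 and 323 normalized counts in WT RT and 429, 356 and 338 in WT Cold. Only library B of WT RT was far from the rest. The log2 fold change was -0.47 with a 95% interval from -1.52 to 0.59 (adjusted p = 0.48), and without that library it was 0.15. Ier2 (chr8:84661331-84662852, minus strand), a small nuclear protein, had 523, 743 and 483 normalized counts in WT RT and 930, 994 and 885 in WT Cold. The groups did not overlap, and the log2 fold change was 0.71 with a standard error of 0.16 (1.63-fold, adjusted p = 0.0157), below the fold threshold.

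**Figure D2:**
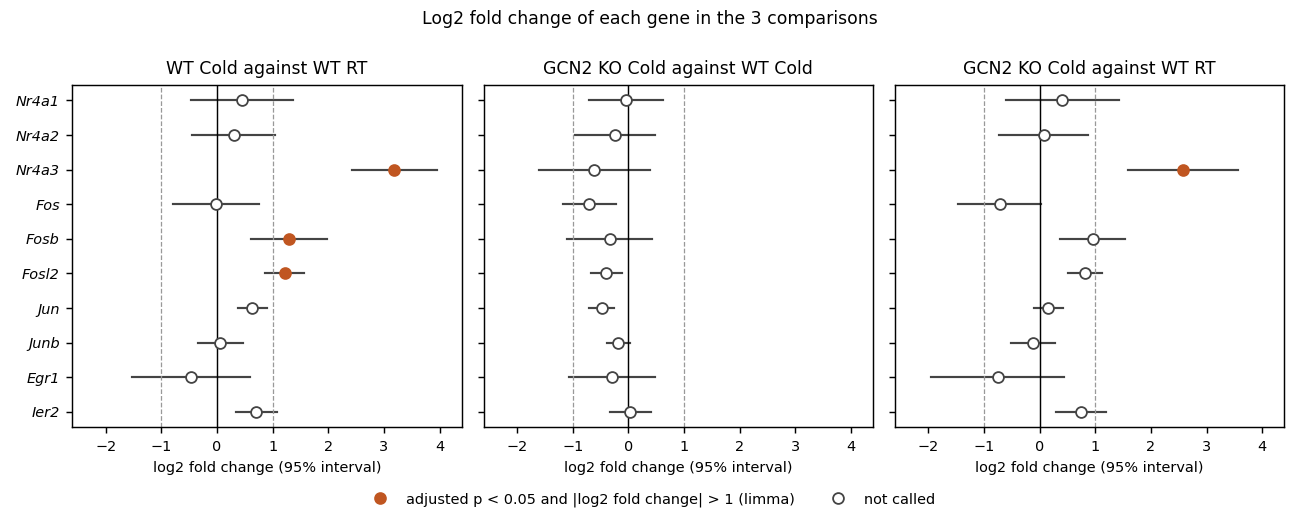
Log2 fold change (x axis) of each gene (y axis) in the 3 comparisons, one panel each. Points are limma estimates, lines are 95% intervals not adjusted for multiple testing, filled points passed both thresholds, and dashed lines mark a log2 fold change of -1 and 1. Nr4a3 (3.19), Fosb (1.29) and Fosl2 (1.21) passed in WT Cold against WT RT, Nr4a3 alone (2.58) in GCN2 KO Cold against WT RT, and none in GCN2 KO Cold against WT Cold.

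The 3 libraries with the GCN2 KO Cold label were then set against WT Cold, the comparison that asks about GCN2 in the cold. None of the 10 genes was called by limma, DESeq2 or edgeR, where limma called 0.257% and DESeq2 1.28% of 16312 genes. With no fold threshold the limma count was again 0, against 0.405% of all genes. At an unadjusted p under 0.05, limma gave 3 of the 10 genes (Fos, Fosl2 and Jun), against 15.3% of all genes. Fold changes were negative for 9 of 10 genes, with a median of -0.31 on the log2 scale against 0.00 for all genes. The libraries did not overlap for 4 of the 10 genes, all lower in GCN2 KO Cold, and for 22.0% of all genes.

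Those 4 genes encode AP-1 subunits. Jun had 2013, 1858 and 2100 normalized counts in WT Cold and 1528, 1281 and 1471 for GCN2 KO Cold, a log2 fold change of -0.48 with a standard error of 0.10 (adjusted p = 0.096). DESeq2 gave Jun an adjusted p of 0.00764, below the fold threshold. Fos had 381, 309 and 471 normalized counts in WT Cold and 293, 213 and 203 in GCN2 KO Cold. The gap between the groups was narrow, and the log2 fold change was -0.71 with a 95% interval from -1.18 to -0.23 (adjusted p = 0.18). Fosl2 had 1208, 1322 and 1574 normalized counts in WT Cold and 1047, 953 and 1111 in GCN2 KO Cold (log2 fold change -0.39, adjusted p = 0.19). Junb had the smallest difference of the 4, with a log2 fold change of -0.18 (adjusted p = 0.40).

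The other 6 genes overlapped between the genotypes in cold. Nr4a3 had 1270, 749 and 1395 normalized counts in WT Cold and 619, 429 and 1395 in GCN2 KO Cold, so library C of the knockout reached the level of the highest wild-type library while libraries A and B were below all of them. Its log2 fold change was -0.61 with a 95% interval from -1.61 to 0.38 (adjusted p = 0.56), an interval that includes 0 and reaches past -1. It ranged from -1.09 without library C of GCN2 KO Cold to -0.24 without library B of that group. Nr4a1 and Nr4a2 had log2 fold changes of -0.05 and -0.24, Fosb -0.34, Egr1 -0.29 and Ier2 0.03, with adjusted p from 0.68 to 0.96. Without library C of either group, a comparison chosen after seeing the data, Nr4a3 stood at -0.92 (adjusted p = 0.22) and the number of genes called was still 0. Skeletal muscle markers were lower in all 12 of 12 genes in this comparison, all with an unadjusted p under 0.05 (15.3% of all genes), and 1 was called by limma (0.257% of all genes), 4 by DESeq2 and 0 by edgeR. Fibroblast markers were lower in 5 of 5 genes and summed to 454 to 523 CPM in WT Cold and 296 to 403 CPM in GCN2 KO Cold, and macrophage markers were lower in 8 of 9, with none called in either list by the 3 tools and 4 and 3 at an unadjusted p under 0.05. Brown adipocyte markers were higher in 9 of 10 genes and summed to 24260 to 26390 CPM in WT Cold and 28520 to 28940 CPM in GCN2 KO Cold. The 3 tools called none of these 10, and 4 had an unadjusted p under 0.05. The part of these marker shifts in the AP-1 values was not tested.

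Set against WT RT, GCN2 KO Cold gave 1 call among the 10 genes, Nr4a3, where 10.6% of 16560 genes were called and 3.01% were called as higher. This comparison shares its WT RT libraries with that of WT Cold, so the values stand side by side and are not independent. Nr4a3 had 184, 81.2 and 136 normalized counts in WT RT and 656, 457 and 1473 in GCN2 KO Cold, with library C more than 2 times the other libraries of its group. The log2 fold change was 2.58 with a standard error of 0.43 (5.97-fold, adjusted p = 0.00291), and it was 2.10 without library C.

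Fosb, Fosl2 and Ier2 were also higher with adjusted p under 0.05 but below the fold threshold, which makes 4 of 10, against 34.2% of all genes. With 1 library left out the adjusted p reached 0.0659 for Fosb and 0.0725 for Ier2, and stayed at or below 0.00954 for Fosl2. The libraries did not overlap for these 4 genes, nor for 49.2% of all genes. Fosl2 had 718, 649 and 512 normalized counts in WT RT and 1110, 1015 and 1173 in GCN2 KO Cold (log2 fold change 0.82, adjusted p = 0.00248). Fosb had 36.7, 41.9 and 40.8 normalized counts in WT RT and 98.3, 58.7 and 82.0 in GCN2 KO Cold. Its log2 fold change of 0.96 (adjusted p = 0.021) was just short of the fold threshold, and DESeq2, which called 10.5% of all genes, called it. Ier2 had 492, 701 and 456 normalized counts in WT RT and 833, 770 and 1152 in GCN2 KO Cold (log2 fold change 0.74, adjusted p = 0.0208).

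Fos had a log2 fold change of -0.72 in that comparison (adjusted p = 0.12), with library A of WT RT inside the knockout range. Without that library the log2 fold change of Fos was -1.06 and passed both thresholds (adjusted p = 0.03). Jun, which was above WT RT in all WT Cold libraries, had 1416, 1506 and 1163 normalized counts in WT RT and 1619, 1365 and 1553 in GCN2 KO Cold. These groups overlapped, and the log2 fold change was 0.16 with a 95% interval from -0.11 to 0.42 (adjusted p = 0.33). Nr4a1, Nr4a2, Junb and Egr1 overlapped as well, with log2 fold changes of 0.41, 0.07, -0.12 and -0.76. With 1 library left out, Nr4a1 ranged from 0.02 (without library B of WT RT) to 0.91 (without library A of WT RT) and Egr1 from -1.17 (without library C of GCN2 KO Cold) to -0.14 (without library B of WT RT).

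Replicate libraries of a group differed more for these genes in some groups than in others. In WT RT, 5 of the 10 genes (Nr4a1, Nr4a2, Nr4a3, Fos and Egr1) had a highest library over 2 times the lowest, against 7.02% of 14046 genes with a mean of at least 1 CPM. In WT Cold none of the 10 did, against 9.45% of genes. Among GCN2 KO Cold libraries 4 of 10 did (the 3 Nr4a genes and Egr1), against 9.92% of genes. The ratio of highest to lowest was 4.03 for Egr1 and 3.40 for Nr4a1 in WT RT, and 1.30 for Nr4a1 in WT Cold.

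The genes did not rise and fall together in the room temperature libraries. Library B of WT RT was highest of its group for Fos, Fosb, Jun, Junb, Egr1 and Ier2 and lowest for Nr4a1, Nr4a2 and Nr4a3. Library A of WT RT was highest for the 3 Nr4a genes and lowest for Fos and Fosb. The knockout library C was highest for all 3 Nr4a genes, Egr1, Ier2 and Fosl2, and lowest for Fos, so Egr1 went with Fos in one group and with the Nr4a genes in the other.

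**Figure D3:**
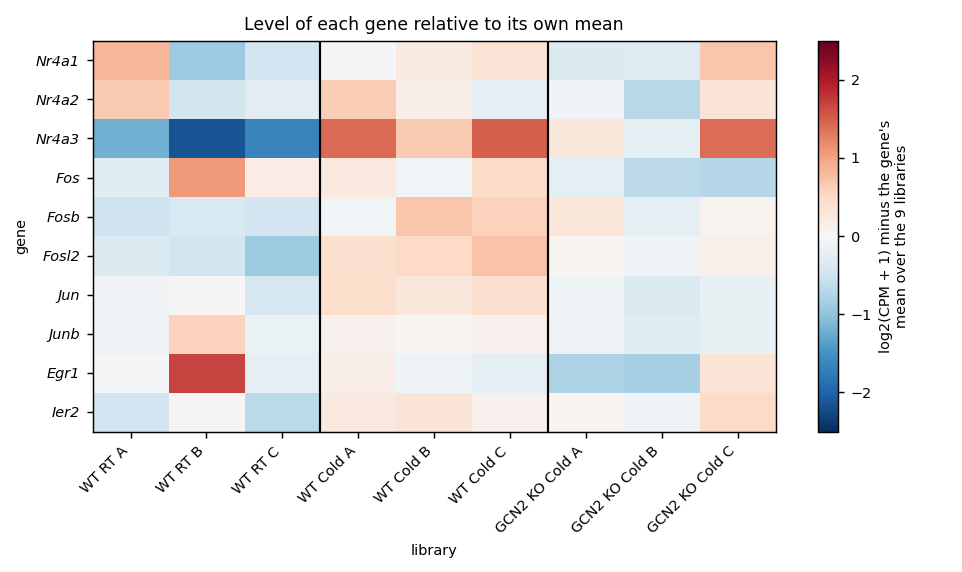
Level of each gene (rows) in each of the 9 libraries (columns), as log2(CPM + 1) minus the mean of that gene over all libraries, with red above and blue below. Library B of WT RT was high for Fos and Egr1 and low for the 3 Nr4a genes, and library C of GCN2 KO Cold was high for the Nr4a genes and low for Fos.

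Of 14036 other genes at 1 CPM or more on average, those with the pattern most like Fos over the 9 libraries were Nuf2 (Pearson r = 0.97), Cdk1 (0.96) and Zfp563 (0.94). Their mean levels were low, at 1.16, 2.52 and 2.63 CPM. Nuf2 encodes a kinetochore protein and Cdk1 the kinase that drives entry into mitosis. Those most like Nr4a1 were Polr2c (0.93), which encodes a subunit of RNA polymerase II, Gm17491 (0.90) and Snhg8 (0.88). Without the 2 libraries farthest from the median level, r was 0.93, 0.89 and 0.85 for the 3 genes most like Fos and 0.85, 0.91 and 0.70 for those most like Nr4a1. These are descriptions over 9 libraries that share groups, and the genes are the top of a long ranking.

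Levels of different genes were compared per exon length, as RPKM (CPM per kilobase of annotated exon). Nr4a1 had the highest mean of the 10 in each group, with 22.8 ± 15.4 RPKM in WT RT, 25.7 ± 3.32 in WT Cold and 24.3 ± 11.0 for GCN2 KO Cold (SD, n = 3). These differed by less than the spread between libraries. The first place in WT RT rested on library A, without which Nr4a1 had a mean of 14.0 RPKM and ranked 4, and in library A of WT Cold it ranked 2. Fosb was lowest in each group, at 0.24 ± 0.02, 0.57 ± 0.19 and 0.41 ± 0.10 RPKM. By group means Nr4a3 ranked 9 in WT RT and 5 in both cold groups, but the rank in GCN2 KO Cold rested on library C and was 7 without it, and in library B of WT Cold it was also 7.

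The make-up of the Nr4a family shifted with these levels. Nr4a3 made up 2.43 to 4.03% of the summed RPKM of the 3 receptors in WT RT libraries, 13.1 to 22.3% in WT Cold and 10.7 to 15.9% in GCN2 KO Cold, so each cold library lay above each room temperature library and the cold groups overlapped. Nr4a1 held 81.5, 69.2 and 75.2% on average in the same order and was the main receptor transcript in all libraries. Within Fos, Fosb and Fosl2 together, Fosl2 held 18.3 to 39.4% in WT RT, 42.1 to 47.5% in WT Cold and 43.7 to 53.7% in GCN2 KO Cold, again with no overlap between room temperature and cold. Fos itself held 70.3 ± 11.5% in WT RT and 51.0 ± 4.66% in WT Cold (SD, n = 3). Jun held 22.2 ± 1.36% of the summed RPKM of Jun, Junb and Jund in WT RT, 24.9 ± 1.40% in WT Cold and 20.3 ± 1.05% for GCN2 KO Cold. Jund held more than Jun or Junb in all groups. All these shares are computed from the same gene levels as above and are no separate test. In normalized counts, 45.5% (WT Cold) and 49.2% (GCN2 KO Cold) of all genes did not overlap with WT RT.

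**Figure D4:**
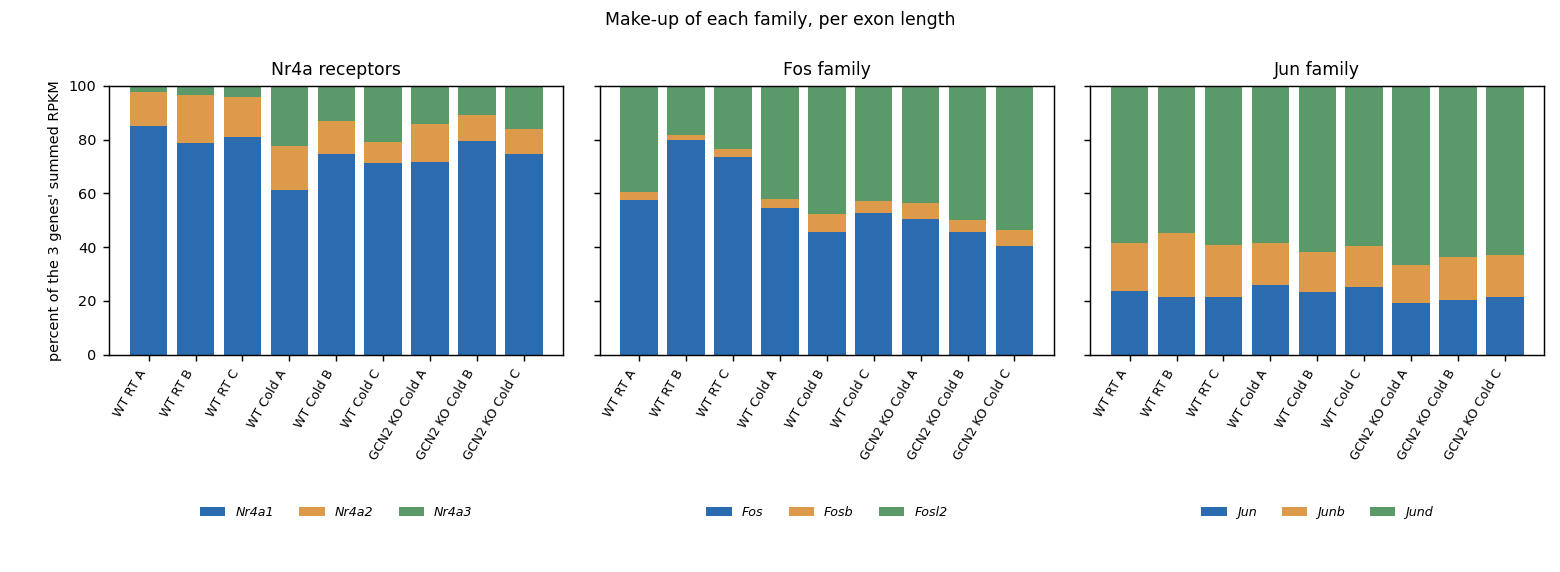
Percent of the summed RPKM (y axis, from 0) that each gene held among 3 genes of each of 3 families, in each of the 9 libraries (x axis). Nr4a3 held 2.43 to 4.03% of the Nr4a sum in WT RT and 10.7% or more in all cold libraries. Fosl2 held at most 39.4% of the sum of Fos, Fosb and Fosl2 in WT RT and at least 42.1% in cold.

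Other AP-1 and Maf proteins, which pair with or compete with Fos and Jun, also moved in part with cold. Of 10 such genes, 2 rose and 1 fell in WT Cold against WT RT, where 8.14% of all genes were called. Maff, a small Maf protein, had 657 ± 176 normalized counts in WT RT and 1730 ± 198 in WT Cold (SD, n = 3) and rose by 1.42 on the log2 scale (adjusted p = 0.00166). Jdp2, an AP-1 repressor, rose by 1.04 on the log2 scale (adjusted p = 0.000636), and Batf, an AP-1 partner of lymphoid and myeloid cells, fell by 1.46 (adjusted p = 0.0171) at 38.6 ± 6.17 normalized counts in WT RT. Jund and Mafg had log2 fold changes of 0.54 and 0.47. The same 3 genes were called in GCN2 KO Cold against WT RT (10.6% of all genes were), with log2 fold changes of 1.22, 1.07 and -1.78, and limma, DESeq2 and edgeR called none of the 10 between GCN2 KO Cold and WT Cold, where 2 had an unadjusted p under 0.05 (15.3% of all genes did). Beside the fall of Batf stand the macrophage markers, whose part in it was not tested.

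Of 32 other immediate early genes, 30 were tested in each table. In WT Cold against WT RT 8 of the 30 rose and none fell: Arc, Gadd45g, Plk3, Sgk1, Ccn2, Dusp1, Tiparp and Ccn1. Of all genes, 2.99% were called as higher. Arc, a neuronal activity gene, had 37.7 ± 5.20 normalized counts in WT RT and 247 ± 50.5 in WT Cold (SD, n = 3) and rose by 2.67 on the log2 scale (adjusted p = 0.000335). Gadd45g, a stress sensor, rose by 1.92, the kinase gene Plk3 by 1.55 and the kinase gene Sgk1 by 1.33 on the log2 scale. Zfp36l2 and Mcl1 were the most abundant genes of this list that were not called, with log2 fold changes of -0.22 and 0.32. Of the 30, 6 rose in GCN2 KO Cold against WT RT (3.01% of all genes did), with Arc at 2.94, Gadd45g at 1.86, Plk3 at 1.66 and Sgk1 at 1.36. Between GCN2 KO Cold and WT Cold none of the 30 was called by limma, DESeq2 or edgeR (5 at an unadjusted p under 0.05, against 15.3% of all genes), and Gadd45g and Sgk1 had log2 fold changes of -0.07 and 0.02.

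Of 25 kinases, DNA-binding regulators and coactivators upstream of these genes, none was called in WT Cold against WT RT by limma, DESeq2 or edgeR. Of the 25, 8 had an adjusted p under 0.05 (27.7% of all genes did) and 15 an unadjusted one (40.9% of all genes did). The abundant Prkaca, a catalytic subunit of protein kinase A, had a log2 fold change of -0.52. Crem, a CREB-family regulator, rose by 1.04 on the log2 scale in GCN2 KO Cold against WT RT (adjusted p = 0.000623) and Rps6ka5, a CREB and histone kinase gene, fell by 1.01 (adjusted p = 0.00146), which makes 2 of 25 where 10.6% of all genes were called. In WT Cold against WT RT, Crem had a log2 fold change of 0.92 (adjusted p = 0.00214) and Rps6ka5 one of -0.84 (adjusted p = 0.0496), both under the fold threshold. None of the 25 was called between the cold groups by the 3 tools, and 3 had an unadjusted p under 0.05, against 15.3% of all genes. Of the 5 partner and corepressor genes, which include Rxra and the Egr1 corepressor Nab1, none was called in any comparison by the 3 tools, and 1, 1 and 2 had an unadjusted p under 0.05 in WT Cold against WT RT, GCN2 KO Cold against WT Cold and GCN2 KO Cold against WT RT, where 40.9%, 15.3% and 44.4% of all genes did.

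Of 8 genes that cAMP is known to raise in brown fat, 5 rose in WT Cold against WT RT, against 2.99% of all genes. Dio2, which makes active thyroid hormone, rose by 3.63 on the log2 scale, and Ppargc1a, a coactivator of mitochondrial genes, rose by 2.70. Pde4d, which breaks down cAMP, rose by 1.19 and the clock gene Per1 by 1.11. Ucp1, the uncoupling protein that makes heat, rose by 1.02, while Sik1 had a log2 fold change of -0.11. Of the 8, 4 rose in GCN2 KO Cold against WT RT, against 3.01% of all genes, with Dio2 at 3.77 and Ppargc1a at 2.77, and the 3 tools called none between the cold groups (2 at an unadjusted p under 0.05, against 15.3% of all genes). Of 8 heat shock genes, some of which share a rapid induction with the immediate early genes, 3 rose in WT Cold against WT RT, again against 2.99% of all genes. These were Hspa1a (by 1.51), Hspa8 (by 1.36) and Hspa1b (by 1.04), where Hspa1a and Hspa1b are near-identical copies and their split is uncertain. Hspa8 (by 1.51) and Hspe1 (by 1.18) rose in GCN2 KO Cold against WT RT, where 3.01% of all genes rose. There Hspa1a was at -0.66 (adjusted p = 0.14) and Hspa1b at 0.145 (adjusted p = 0.65). Between the cold groups limma and edgeR called none of the 8 and DESeq2 1, with 3 at an unadjusted p under 0.05, against 15.3% of all genes. In that comparison Hspa1a was at -2.16 (limma adjusted p = 0.065) and Hspa1b at -0.89 (0.19), and 5 of the 8 had positive fold changes.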

How the data were processed

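Total RNA of brown adipose tissue was sequenced as poly(A)-enriched, paired-end libraries with a kit that does not mark strand, so reads of a gene and of an antisense partner cannot be told apart. Per the study's methods and the processing notes, the authors trimmed reads with Trimmomatic (0.36), aligned them with STAR (2.5.2b, GRCm39 in the notes), counted unique reads in exons with featureCounts (Subread 1.5.2) and used DESeq2. The deposited values are a signal per gene and library, reads scaled by 1 size factor per library within each of 3 tables, and are called normalized counts here. Columns with the authors' own fold changes (log2) and p-values were not used. Each value was a whole multiple of 1 step (100% within 0.01 read), so reads were recovered. CPM and RPKM were computed from them, with exon lengths and gene coordinates from GENCODE M21 on GRCm38.

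Groups were compared within a table with limma (3.58.1, R 4.3.3) on log2(value + 1), which understates the change of low genes, with a trend of variance on level and p-values adjusted over all genes of the table by Benjamini-Hochberg, after a test on simulated data. The thresholds are the study's. DESeq2 (1.42.0) and edgeR (4.0.16) on recovered reads, CPM, all 3 groups in 1 fit, other thresholds and pseudocounts, filters, no trend and each library left out were alternatives. Leaving out library C of each cold group was added after seeing the data. The genes and lists were chosen with earlier results of these data known. All 10 genes are named, with Eif2ak4, from each other list up to 4 called genes with the largest fold change and up to 2 uncalled genes with the highest level, and the 3 genes most correlated with Nr4a1 and with Fos. Ccn1, Ccn2, Dusp1 and Tiparp complete a count and, with Ddx3y and Xist, were named after their values were seen. Endothelial, lymphocyte and fibroblast marker lists gave no call in the 3 comparisons. Some items that the naming rule covers are not reported here. Among the 10 brown adipocyte markers 2 rose in each cold group against WT RT, where 2.99% and 3.01% of all genes rose. Columns were tied to groups by library code, and the number of columns of other samples was 0. Depth was 27058799 to 30768064 reads per library, so counting limits precision only for low genes such as Fosb.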

Additional observations from a re-analysis of the deposited data

How the results depend on the processing

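Most fold changes kept their direction. In WT Cold against WT RT the number of the 10 genes called was 3, 5 with no fold threshold, 2 on CPM, with all 3 groups in 1 fit or at an adjusted p under 0.01, and 2 to 3 with any 1 library left out. In GCN2 KO Cold against WT Cold it was 0 in all alternatives. In GCN2 KO Cold against WT RT it was 1, 2 with DESeq2, 4 with no fold threshold and 1 to 2 with any 1 library left out, where library A of WT RT added Fos and library B of GCN2 KO Cold added Fosb (1.16). Without library C of each cold group, chosen after seeing the data, the counts were 3, 0 and 1. Values of genes that were not called turned sign. On CPM, alone or with all 3 groups in 1 fit, the log2 fold changes were -0.025 for Junb in WT Cold against WT RT, -0.08 for Ier2 in GCN2 KO Cold against WT Cold, and -0.125 for Nr4a2 and -0.046 for Jun in GCN2 KO Cold against WT RT. For Nr4a1 in GCN2 KO Cold against WT Cold they were 0.036 with DESeq2 or its size factors in edgeR and 0.042 with edgeR. Without library C of each cold group, Ier2 was at -0.185 in that comparison and Nr4a2 at -0.187 in GCN2 KO Cold against WT RT. With any 1 library left out, WT Cold against WT RT gave -0.353 to 0.359 for Fos, -0.05 to 0.277 for Junb and -0.802 to 0.149 for Egr1. GCN2 KO Cold against WT Cold gave -0.398 to 0.142 for Nr4a1, -0.495 to 0.061 for Nr4a2 and -0.144 to 0.153 for Ier2, and GCN2 KO Cold against WT RT gave -0.187 to 0.417 for Nr4a2 and -0.229 to 0.099 for Junb. The cause of these turns was not tested. Over all genes, GCN2 KO Cold against WT Cold gave 42 calls, 209 with DESeq2, 66 on CPM or with no fold threshold, 156 with 3 groups, 130 without library C, 6 without the trend, 8 at an adjusted p under 0.01 and 3 to 22 with 1 library left out, and WT Cold against WT RT gave 1357, 869 on CPM, 871 with 3 groups, 883 at an adjusted p under 0.01 and 4624 with no fold threshold, where GCN2 KO Cold against WT RT went from 1754 to 5657. CPM shifted the median of all genes by -0.16 in GCN2 KO Cold against WT RT and took the share of calls that were higher from 28.5% to 17.1%, and in GCN2 KO Cold against WT Cold from 23.8% to 12.1%. No paired analysis was possible because the columns carry no replicate number.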
